A study of Mus musculus with 2 samples.

Results

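The miRNAs numbered miR-466, miR-467, miR-669 and miR-297 were taken from 2 arrays as every probe whose name holds 1 of these 4 numbers followed by a letter or a hyphen, on either arm, with a probe shared by several names counted once. This gave 71 of 1900 miRNA probes, which carry 80 names; 7 of the probes are shared between names. The high-fat array held total RNA from epididymal adipose tissue of male C57BL/6J mice fed for 8 weeks, from 8 weeks of age, on chow in which fat gave 60% of the kcal. The normal-diet array held RNA of the same fat pad from mice of the same sex, strain and age that ate a diet with 5% fat over the same time. The labels do not say how many mice gave RNA to an array, so each diet has 1 value per probe. No p-value could be computed, and every difference below is a difference between those arrays.

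Most of these miRNAs come from a mouse locus known as a rodent-specific array of repeated hairpins in an intron of Sfmbt2, a gene of the Polycomb group that is imprinted and read from the paternal copy in early embryo and placenta. The hairpins are thought to have multiplied by tandem duplication of a stretch rich in UG and CA repeats, and their mature miRNAs are known chiefly from embryonic stem cells and placenta, where mice without the cluster form an abnormal placenta. Members with the same numbers but other addresses lie in similar simple repeats elsewhere in the genome. Known roles of single members include those of miR-467b, which targets the lipoprotein lipase gene Lpl in macrophages, miR-466l, which stabilises Il10 mRNA in macrophages, and miR-669a, which restrains the muscle regulator MyoD in heart progenitors.

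In the RefSeq annotation of GRCm38.p6, 82 hairpin genes bear these numbers, and 72 of them lie within the span of Sfmbt2 (chr2:10370440-10595253), between positions 10466663 and 10518279, a stretch of 51.6 kb. Several names are encoded many times there: 12 hairpins of miR-669a, 10 of miR-467a and 8 of miR-466b. The other 10 hairpins are scattered over chromosomes 3, 5, 7, 9, 10, 11 and 13. By name, 56 of the 71 probes could be placed inside Sfmbt2 only, 9 outside it only, 5 in both, and 1, miR-466a-5p, was not placed.

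The mature sequences are shown because the repeat is what the family has in common and what its probes must tell apart. RefSeq held 8 of the 80 names, each from a hairpin outside Sfmbt2. They are printed 5′ to 3′ with the seed, bases 2 to 8, in capitals. The seed is the stretch that guides a miRNA to its targets.
miR-466i-3p: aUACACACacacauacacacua
miR-466j: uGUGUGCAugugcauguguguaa
miR-466k: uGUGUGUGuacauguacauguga
miR-466q: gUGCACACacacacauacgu
miR-467f: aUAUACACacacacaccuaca
miR-467g: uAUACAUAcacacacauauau
miR-467h: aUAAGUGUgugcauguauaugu
miR-669n: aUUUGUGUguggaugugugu
The loci are chr13:17747552-17747573 (plus strand) for miR-466i-3p, chr10:60960802-60960824 (plus) for miR-466j, chr3:85467396-85467418 (plus) for miR-466k, chr3:28419988-28420007 (plus) for miR-466q, chr11:69635419-69635439 (minus) for miR-467f, chr5:34732872-34732892 (minus) for miR-467g, chr9:115381898-115381919 (plus) for miR-467h and chr3:115979905-115979924 (plus) for miR-669n. All 8 seeds differ. The number in the name does not set the repeat: miR-466i-3p, miR-466q, miR-467f and miR-467g are runs of CA, and miR-466j, miR-466k, miR-467h and miR-669n are runs of UG. The letters UGUGUGUG or ACACACAC, searched on the mature strand only and counted once where they overlap, stood in 6 of the 8 and in 11 of the 1679 mature miRNA names that RefSeq lists (0.655%).

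The hairpin of miR-466k (chr3:85467377-85467498, plus strand), with the mature part in capitals, shows how far the repeat runs beyond the miRNA itself. In the miR-297 hairpin outside Sfmbt2, which RefSeq names Mir297-1 (chr7:10958437-10958512, minus strand), the capitals mark the longest stretch in which purines and pyrimidines alternate, 50 of its 76 bases.
Mir466k: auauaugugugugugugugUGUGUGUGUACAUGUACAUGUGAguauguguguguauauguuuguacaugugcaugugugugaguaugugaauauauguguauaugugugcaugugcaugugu
Mir297-1: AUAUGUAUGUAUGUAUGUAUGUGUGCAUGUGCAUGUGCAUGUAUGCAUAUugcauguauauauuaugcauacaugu
Probes for such sequences can bind each other's targets, so values of members with near-identical letters cannot be read as separate measurements.

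All of these miRNAs were dim. A net signal here is the spot's intensity minus the mean of the array's blank spots, in scanner units. The 71 probes had a median net signal of 13.0 on the high-fat array (range -1.40 to 44.8) and of 4.37 on the normal-diet array (range -2.08 to 33.0), while the brightest miRNA probe reached 43333 on the first and 43935 on the second. The median of all miRNA probes was 10.8 on the high-fat array and 6.91 on the normal-diet array, so low signal was not particular to the family. Their summed net signal was 1029 on the high-fat array and 461 on the normal-diet array, which was 0.357% and 0.155% of the net signal of all miRNA probes. The SD of the blank spots was 0.793 and 0.934 units, and a probe counted as detected above 2 SD, which was 1.59 units on the high-fat array and 1.87 on the normal-diet array. Of 896 blank spots, 5.36% and 6.03% passed that limit.

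More of the family was detected on the high-fat array. There 60 of 71 probes passed the limit (84.5%), against 48 on the normal-diet array (67.6%). Of all 1900 miRNA probes, 79.5% passed on the high-fat array and 72.1% on the normal-diet array. Both arrays detected 46, the high-fat array alone 14, the normal-diet array alone 2, and neither 9. The 14 were 19.7% of the family, against 8.58% of the other 1829 miRNA probes (157), and the 2 were 2.82%, against 1.59% (29). With 3 SD as the limit, 59 probes passed on the high-fat array and 39 on the normal-diet array, and 20 passed on the high-fat array alone. The negative control spots set a harder mark: their brightest spot had a net signal of 8.72 on the high-fat array and 10.3 on the normal-diet array, and 46 and 19 of the 71 probes lay above it. No share of other miRNA probes is given for the 3 SD limit or this mark, so these counts describe the family only.

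**Figure D1:**
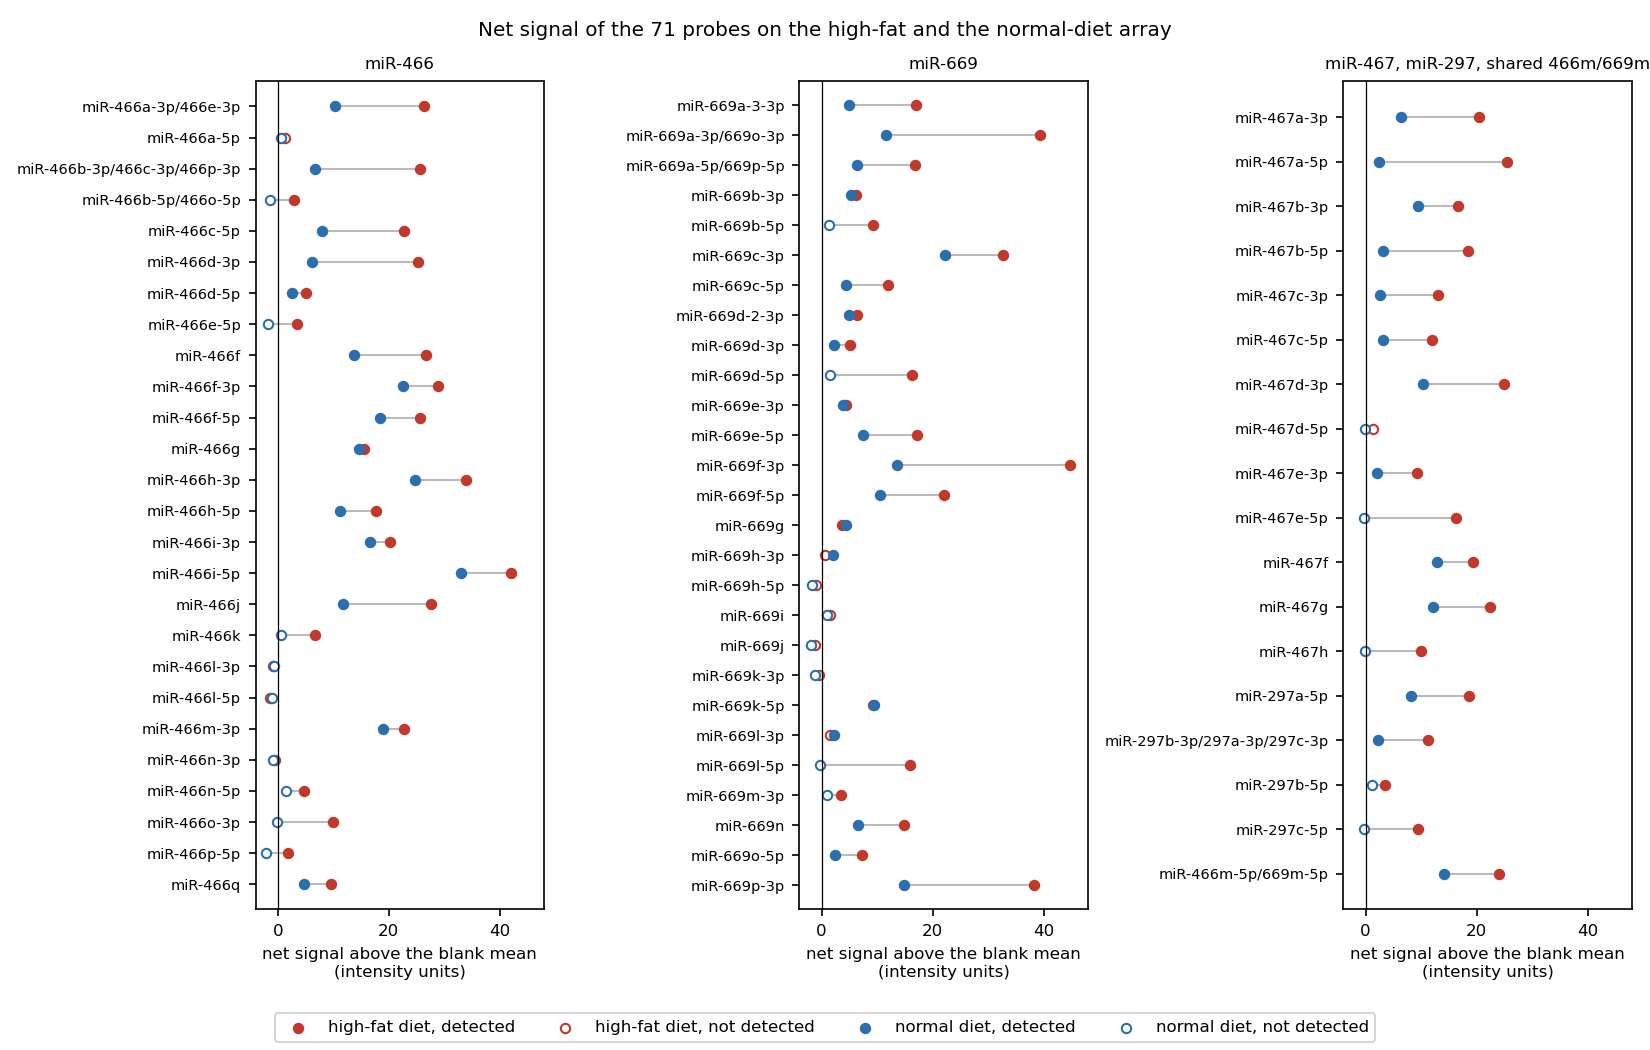
Net signal (horizontal axis, intensity units above the mean of the blank spots) of each of the 71 probes on the high-fat array (red) and the normal-diet array (blue), with 1 array per diet and no error bars. Filled circles are detected and open circles not; most red circles lie to the right of their blue ones, and the highest is miR-669f-3p at 44.8.

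The members seen on the high-fat array alone with the highest net signal were miR-669d-5p, miR-467e-5p, miR-669l-5p and miR-466o-3p. miR-669d-5p had a net signal of 16.3 on the high-fat array and 1.5 on the normal-diet array. For miR-467e-5p the net signals were 16.2 (high-fat) and -0.299 (normal diet), and for miR-669l-5p 15.9 and -0.226. On the scale defined next, these 3 were at least 1.20-fold, 1.20-fold and 1.19-fold higher on the high-fat array. miR-466o-3p, at 9.97 on the high-fat array and -0.120 on the normal-diet array, was at least 1.1-fold higher. With the local background the log2 differences of these 4 were 0.09, 0.03, 0.03 and 0.09, which are under the bounds. Each bound sets the high-fat value against the lowest value of any miRNA probe detected on the normal-diet array. The pair seen on the normal-diet array alone, miR-669h-3p (0.592 on the high-fat array and 2.02 on the normal-diet array) and miR-669l-3p (1.54 and 2.15), stood within 1 unit of the limit. Among the 9 probes below the limit on both arrays were both arms of miR-466l, at -1.40 and -1.03 for the 5p arm and -0.810 and -0.599 for the 3p arm, high-fat array first in each pair.

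Differences are given as log2 of the high-fat over the normal-diet value after background correction with an offset of 50 units and quantile scaling. The offset exceeds the net signal of every member, so it pulls all their differences toward 0, and the ratio of net signals is printed beside them. That ratio is not scaled between arrays: over the 1339 miRNA probes detected on both it had a median of 1.20, and the spike controls were lower on the high-fat array, with mean net signals of 5572 and 5968 there, against 6913 and 7486 on the normal-diet array. The only measures of error are the blank spots, whose log2 differences had an SD of 0.0381 over 896 spots, and the repeated control spots. The dimmest such controls, with 8 spots each, were Negative Control 3, whose mean net signals were 4.85 on the high-fat array and 6.90 on the normal-diet array, and S-Probe7, at 7.06 and 5.34; their single-spot log2 differences had SDs of 0.0334 and 0.0644. Over all 7 controls detected in every spot the SD ran from 0.03 to 0.18. It covers spots within an array and not animals.

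Of the 46 probes detected on both arrays, 36 had a higher and 10 a lower value on the high-fat array, and the log2 differences had a median of 0.10 and ran from -0.09 to 0.41. The share with a higher value was 78.3%, against 35.2% of all 1339 miRNA probes detected on both arrays, whose median was -0.04. Among the 809 other miRNA probes whose mean net signal lay in the members' range, 3.65 to 37.5 units, 31.8% were higher, with a median of -0.04. No member was 2-fold higher (1.27% of all probes were) and none 2-fold lower (0.747%). This count cannot set the family apart, because the offset left too little room for a 2-fold difference at such signals. Member values after offset and scaling ran only from 52.3 (miR-466p-5p, normal-diet array) to 93.5 (miR-669f-3p, high-fat array). Of the 809 probes of like signal, 0 were 2-fold higher and 0 were 2-fold lower. The ratio of net signals was 2 or more for 26 members, or 56.5%, against 13.4% of all and 13.7% of the probes of like signal. No member had a ratio of 0.5 or less, but only 20 of all 1339 probes and 7 of the 809 of like signal did. That absence cannot set the family apart. In the authors' deposited table, which gives net signals scaled to a common median, 41 of the 46 were higher, against 50.3% of all probes, and 20 were at least 2-fold higher (43.5%), against 7.54%. Over the 19 members above all negative control spots on both arrays, 14 were higher, and the medians were 0.04 for the log2 difference and 1.57 for the ratio. The ratio was 2 or more for 6 of these 19, so most of the 26 members with such a ratio were not above that mark on both arrays. No share of other probes above that mark is given.

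The light measured around the spots moved with the members. With that local background subtracted in place of the blank mean, the median of the 46 was 0.02, and 30 of them were higher (65.2%), against 46.7% of all. Of the 22 members at or above 0.11 on the reported scale, the median SD of the repeated control spots, 10 were then below 0. Over the 71 members the local background correlated with the net signal with r = 0.84 on the high-fat array and 0.83 on the normal-diet array, across probes of 1 array. Its median around members was 71.3 units on the high-fat array and 68.2 on the normal-diet array, against 63.0 and 64.4 around blank spots. These correlations and medians were not set beside those of other miRNA probes of like signal, so they are not shown to be particular to the family.

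Among the miR-669 members, 12 of 17 detected on both arrays were higher on the high-fat array (median 0.10). miR-669f-3p had a net signal of 44.8 on the high-fat array and 13.5 on the normal-diet array, a ratio of 3.32 and a log2 difference of 0.41. The probe shared by miR-669a-3p and miR-669o-3p had 39.3 on the high-fat array and 11.6 on the normal-diet array (ratio 3.38, log2 difference 0.38). These were the brightest signals of the family after high-fat diet together with that of miR-466i-5p, but their differences were -0.03 and -0.01 with the local background. miR-669p-3p had 38.2 on the high-fat array and 14.9 on the normal-diet array (2.56, 0.28) and stayed above 0 under all 9 alternative backgrounds and scalings, with 0.18 for the local background. So did miR-669c-3p, miR-669f-5p, miR-466h-3p and the probe shared by miR-466b-3p, miR-466c-3p and miR-466p-3p, with smaller values for the local background. miR-669c-3p, at 32.6 on the high-fat array and 22.2 on the normal-diet array, had a ratio of 1.47 and a log2 difference of 0.04, and its 5p arm, at 12.0 and 4.37, a ratio of 2.75 and a log2 difference of 0.10. miR-669f-5p had 22 units on the high-fat array and 10.5 on the normal-diet array (2.09, 0.12). On the lower side were miR-669k-5p, with 9.27 on the high-fat array and 9.45 on the normal-diet array (0.980, -0.09), miR-669g, with 3.70 and 4.37 (0.847, -0.07), and miR-669b-3p, with 6.24 and 5.34 (1.17, -0.05). All 3 were above 0 with spike control scaling, which moved the median of all probes to 0.35, and miR-669k-5p (0.00471) and miR-669g (0.06) also with the local background.

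All 10 miR-467 probes detected on both arrays were higher on the high-fat array, with a median of 0.15 and a median net signal ratio of 3.51. With the local background 7 of the 10 were higher, and the median was 0.01. Normal-diet values of miR-467e-3p, miR-467a-5p, miR-467c-3p, miR-467b-5p and miR-467c-5p ran from 2.07 to 3.09, below the brightest blank spot, 4.74. Their ratios thus have denominators not clearly above background. miR-467a-5p had 25.5 units on the high-fat array and 2.44 on the normal-diet array, which gave a ratio of 10.4 and a log2 difference of 0.41. The normal-diet value lay close above the detection limit of 1.87 and below the 99th percentile of the blank spots, 2.99, and the difference was -0.12 with the local background. Its 3p arm had 20.4 units on the high-fat array and 6.43 on the normal-diet array (3.17, 0.20). miR-467b, known for the targeting of Lpl, had 18.5 units on the high-fat array and 3.06 on the normal-diet array for its 5p arm (6.04, 0.27) and 16.6 and 9.53 for its 3p arm (1.74, 0.06). The 5p value of 3.06 lay close above the same 99th percentile. With the local background the differences were 0.00285 for the 5p and -0.02 for the 3p arm. miR-467d-3p had 24.9 units on the high-fat array and 10.3 on the normal-diet array (2.41, 0.18), with -0.05 for the local background. The smallest difference was that of miR-467f (0.03), which is encoded outside Sfmbt2.

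The miR-466 members were divided. Of 16 detected on both arrays 11 were higher and 5 lower, and the median was 0.02, with -0.0042 under 75th percentile scaling. The upper end held probes for hairpins inside Sfmbt2 and miR-466j, which is encoded outside it (0.20, and 0.05 with the local background). miR-466d-3p had 25.2 units on the high-fat array and 6.10 on the normal-diet array (4.13, 0.29, but -0.03 with the local background), and the probe shared by miR-466b-3p, miR-466c-3p and miR-466p-3p had 25.6 and 6.76 (3.79, 0.28). The probe shared by miR-466a-3p and miR-466e-3p followed, with 26.3 on the high-fat array and 10.4 on the normal-diet array (2.53, 0.20, but -0.08 with the local background). Next come the 3 probes with the highest normal-diet signal of all 71. miR-466i-5p had 42.1 on the high-fat array and 33.0 on the normal-diet array (1.28, -0.02), miR-466h-3p had 34 and 24.8 (1.37, 0.01), and miR-466f-3p had 28.9 and 22.5 (1.28, -0.03). Those differences lie within the spread of the dimmest repeated control spots, but this holds for the reported scale: miR-466i-5p stood at 0.12 with the local background, and the authors' deposited table gave 0.10, 0.20 and 0.10 for the 3. Lowest were miR-466g, with 15.6 on the high-fat array and 14.6 on the normal-diet array (1.07, -0.08), miR-466m-3p, with 22.7 and 18.9 (1.20, -0.06), and miR-466i-3p, with 20.3 and 16.6 (1.23, -0.05). The sign of these 3 turned without any scaling and with spike control scaling, and miR-466m-3p (0.01) and miR-466i-3p (0.04) were also above 0 in the authors' deposited table.

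The high-fat array detected all 4 miR-297 probes and the normal-diet array 2. miR-297a-5p had 18.6 units on the high-fat array and 8.26 on the normal-diet array (2.25, 0.12), and the probe shared by the 3p arms of miR-297a, miR-297b and miR-297c had 11.3 and 2.29 (4.94, 0.15). Both stood at -0.01 with the local background. The 3p value on the normal-diet array lay below the 99th percentile of its blank spots, 2.99, so that ratio has a denominator not clearly above background. miR-297c-5p, at 9.41 on the high-fat array and -0.316 on the normal-diet array, was at least 1.09-fold higher, but its log2 difference was -0.06 with the local background.

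**Figure D2:**
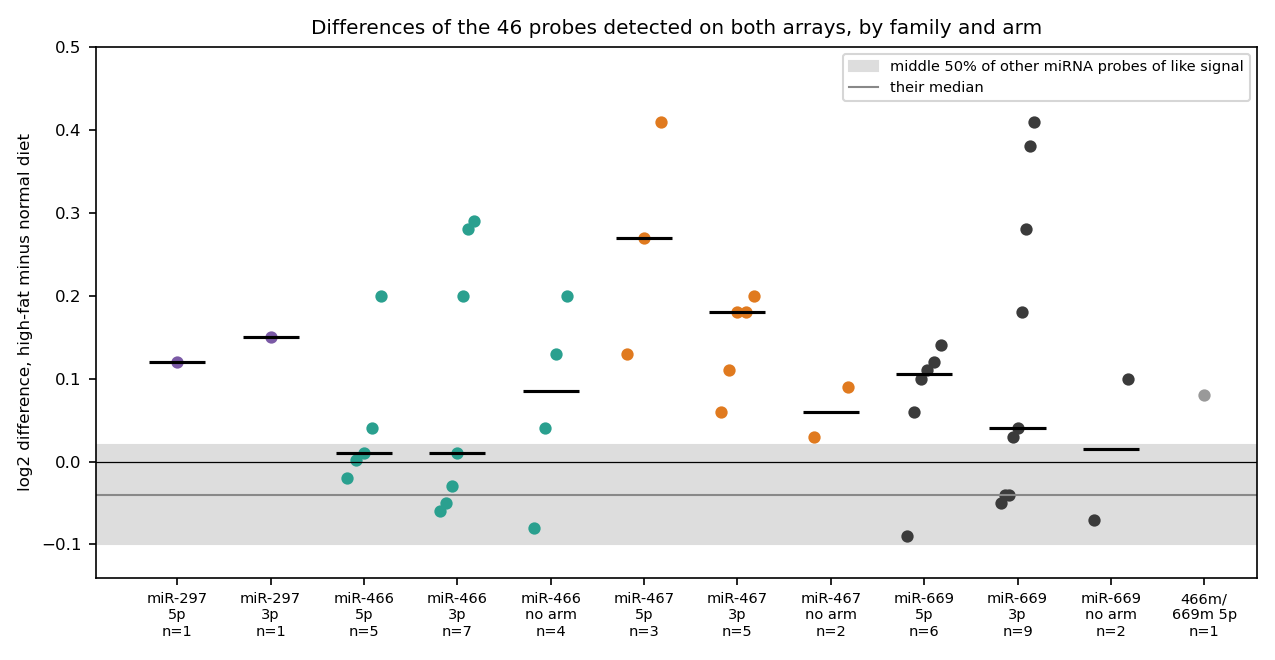
Log2 difference, high-fat minus normal diet (vertical axis), of the 46 probes detected on both arrays, grouped by family and arm, with a bar at each group's median. The grey band is the middle 50% of the 809 other miRNA probes of like signal, from -0.10 to 0.02 around a median of -0.04; all 10 miR-467 points lie above it.

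The arms differed in detection. Of 30 probes for 5p arms, 26 were detected on the high-fat array and 16 on the normal-diet array. Of 29 probes for 3p arms, 24 were detected on each array. The high-fat array alone detected 10 of the 5p probes (33.3%) and 2 of the 3p probes (6.90%), against 10.1% of all 785 5p probes and 8.85% of all 791 3p probes on the arrays. Among probes detected on both arrays the median log2 difference was 0.10 over 16 5p probes, of which 14 were higher, and 0.13 over 22 3p probes, of which 16 were. These shares were 87.5% for the 5p and 72.7% for the 3p members. Over all miRNA probes detected on both arrays they were 40.3% for 5p and 28.7% for 3p probes, so 5p probes were more often higher there too. The 12 probes whose names give no arm, which include those of most loci outside Sfmbt2, had a median of 0.07 over the 8 detected on both.

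Both arms of a name had probes of their own in 19 cases, and in 10 of them both arms were detected on both arrays. The 5p arm had the larger difference in 7 of these 10. In miR-467a it was 0.41 for the 5p and 0.20 for the 3p arm, and in miR-669e 0.11 and -0.04. The order was turned in miR-669f, at 0.12 for the 5p and 0.41 for the 3p arm, and in miR-466d, at 0.01 and 0.29. In miR-466f, miR-466h and miR-466i, which count among the 7, the arms differed by only 0.02 to 0.03. With the local background the 5p arm had the larger difference in 4 of the 10, and 3 of the 10 kept their order. All 4 pairs given with values here turned: miR-467a stood at -0.12 for the 5p and 0.05 for the 3p arm, miR-669e at -0.02 and 0.02, miR-669f at 0.03 and -0.03, and miR-466d at 0.05 and -0.03. In 3 further names, miR-467e, miR-669b and miR-669d, the 5p arm was detected on the high-fat array alone and the 3p arm on both. The probes of an arm pair share a hairpin, and their difference was not tested.

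Position in the genome was set beside the size of the difference. The 34 probes placed inside Sfmbt2 and detected on both arrays had a median of 0.11 on the log2 scale and a median net signal ratio of 2.47, and 27 were higher. The 7 probes placed outside had a median of 0.04 and a median ratio of 1.85, and 5 were higher. The ranges overlapped, at -0.09 to 0.41 and -0.05 to 0.20, and the order turned with the local background, where the medians were 0.01 inside and 0.05 outside. The outside probes included miR-466j (27.7 on the high-fat array and 11.7 on the normal-diet array, ratio 2.36), miR-669n (14.8 and 6.46, 2.30), miR-467g (22.4 and 12.1, 1.85) and miR-466q (9.51 and 4.70, 2.03). miR-466k, whose seed is a pure run of GU, was detected on the high-fat array alone, at 6.80 units there and 0.619 on the normal-diet array.

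Within Sfmbt2, the tandem array of miR-467 hairpins formed the middle of the cluster. The 15 probes placed between the first and last miR-467 hairpin and detected on both arrays had a median of 0.18 and a median ratio of 3.17, with 13 higher. The 8 probes from hairpins before it had a median of -0.00354 and a ratio of 1.68, with 4 higher, and the 8 from hairpins after it a median of 0.04 and a ratio of 1.75, with 7 higher. Probes whose name belongs to more than 1 hairpin of the cluster had a median of 0.24 over 8 probes, all of them higher, and those with 1 hairpin a median of 0.06 over 26, of which 19 were higher. With the local background these orders were lost: the medians were 0.01 in the middle, -0.01 before it and 0.03 after it, and 0.02 and 0.01 for names with more than 1 and with 1 hairpin. This split into segments and by hairpin number was chosen after the values had been seen, and most of the miR-467 probes fall in the middle segment by construction.

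**Figure D3:**
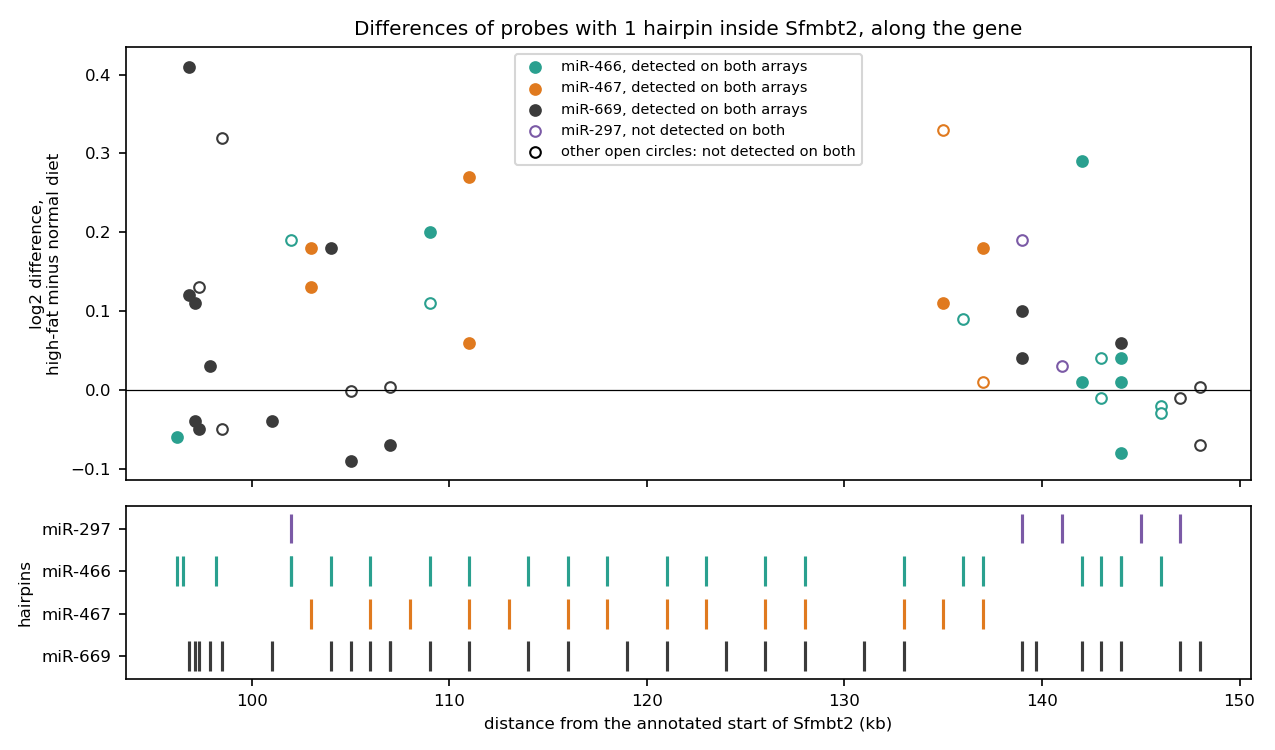
Log2 difference, high-fat minus normal diet (upper panel, vertical axis), of probes whose name belongs to 1 hairpin inside Sfmbt2, by the distance of that hairpin from the annotated start of the gene in kb (horizontal axis), with the hairpins of each family as ticks in the lower panel. Filled circles are probes detected on both arrays and open circles are not; the highest filled point is miR-669f-3p at 0.41, among the first hairpins of the cluster, and the last filled points run from -0.08 to 0.06.

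For comparison, the arrays carry 5 miRNAs with other numbers whose mature sequence holds UGUGUGUG or ACACACAC. Those with the closest letters to the family are miR-574-5p (chr5:64970328-64970350, plus strand) and miR-1187 (chr5:82798964-82798986, minus strand), again with the seed in capitals.
miR-574-5p: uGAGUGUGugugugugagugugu
miR-1187: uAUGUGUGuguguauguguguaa
miR-574-5p had 23.5 units on the high-fat array and 20.5 on the normal-diet array (log2 difference -0.08), and miR-1187 18.4 and 16.1 (-0.07). Of the 5, 4 were lower on this scale and only miR-672-5p higher, at 11.5 on the high-fat array and 4.75 on the normal-diet array (0.08), and their median was -0.06, with a median net signal ratio of 1.15 (range of the single log2 differences -0.08 to 0.08). The list of miRNAs from other imprinted loci, mainly the Dlk1-Dio3 cluster, had 69 of 102 probes detected on both arrays, with 13 higher and a median of -0.06. Both medians lie near the -0.04 of all probes. The share of the imprinted-locus list with a higher value was 18.8%, though, against 35.2% of all probes detected on both arrays. Its median net signal ratio was 1.04, against 1.20 of all.

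Markers of other cells also differed between the arrays. All 11 epididymis and testis markers were detected on the high-fat array and 4 on the normal-diet array, with a summed net signal (values below 0 taken as 0, here and in the family's sum) of 3064 and 18.3 and single values from 21.6 to 1198 on the high-fat array and from -4.71 to 4.16 on the normal-diet array. The 5 epithelial markers of the miR-200 family, detected on both arrays, summed to 404 on the high-fat array and 46.5 on the normal-diet array. Markers of embryonic stem cells and trophoblast, where the Sfmbt2 cluster is best known, stayed dim: 3 of 5 were detected on the high-fat array and 2 on the normal-diet array, with sums of 21.0 and 9.44. The 4 adipocyte markers were detected on both arrays and summed to 1314 on the high-fat array and 2809.7 on the normal-diet array, the 3 erythrocyte markers to 1050.3 and 5534, and the 4 leukocyte markers to 416 and 794. In such bulk RNA, fewer cells of a type and less RNA per cell cannot be told apart, and the part of these cells in the differences of the family was not tested.

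The direction of the family's median held under all backgrounds and scalings tried, while its size did not. It ran from 0.02 with the local background to 0.92 in the authors' deposited table and 1.18 as the log2 of the unscaled net signal ratio, and the median of the other miRNA probes under those settings was -0.01, -0.02 and 0.23. With spike control scaling all 46 members were above 0 (median 0.49), but so were 94.2% of all probes.

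**Figure D4:**
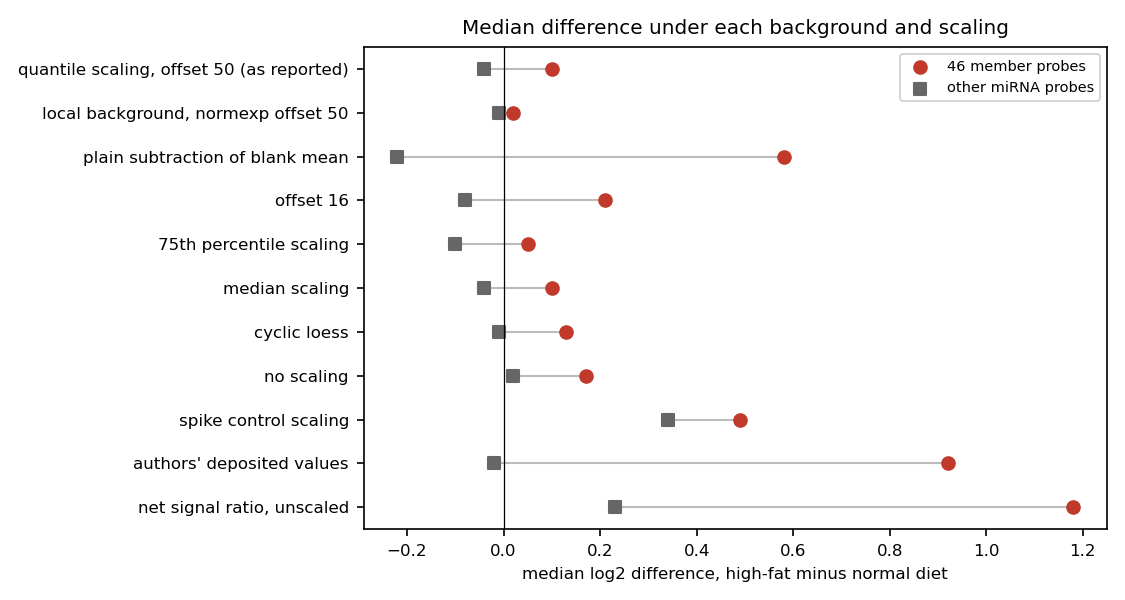
Median log2 difference, high-fat minus normal diet (horizontal axis), under each background and scaling (rows), for the 46 members detected on both arrays (red circles) and the other miRNA probes detected on both (grey squares). In every row the members lie to the right of the others, by the least with the local background, at 0.02 against -0.01.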

How the data were processed

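Total RNA was labelled with Cy5 and hybridised to 3D-Gene miRNA arrays in 1 colour, per the labels' protocols. Each scanner file deposited by the authors gives a median spot intensity and a median local background intensity merged from several gains, per the file headers; no scanner software is named there. Set against the scanner files, each column of the processed intensity values the authors deposited equals the spot intensity minus the trimmed mean of the array's blank spots, times 1.56 for the high-fat and 1.86 for the normal-diet array, with a largest relative deviation of 4e-05, and lists a value exactly where the spot passed the blank mean plus 2 SD. It is linear, with no centring per miRNA. Each diet has its own array position, so position and diet are confounded.

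Here, spot intensities of all spots were corrected with limma 3.58.1 (R 4.3.3; normexp, offset 50), with the trimmed blank mean (5% of blanks left out at each end) as background, as in the deposited values; the light around each spot was an alternative. Quantile normalisation across the 1900 probes for miRNAs and log2 transformation followed. The steps were tested on simulated data, where known changes were checked only at net signals above those of every member. The pass rule covered plain subtraction only. The test therefore does not cover the reported scale at the signal level of this family. The bounds for members detected on 1 array use the lowest detected value of the other. Hairpins were placed by name with RefSeq annotation and sequences of GRCm38.p6. Members named in the text were those past 2-fold (none), the 6 largest differences each way, the 6 highest levels, the brightest 5p and 3p of each family and the 4 brightest seen on 1 array, with others of the same hairpin or list beside them, chosen after their values were seen. The members, lists and settings were chosen with earlier results of these data known. With 1 array per diet the number of arrays limits the precision, and no test was run.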

Additional observations from a re-analysis of the deposited data

How the results depend on the processing

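No paired analysis was possible because each diet has 1 array, so no array could be left out either. Beside the values in the report, an alternative was counted as moving a log2 value where it changed it by more than 0.11, the median SD over the repeated control probes. The family median was 0.21 with an offset of 16, 0.58 by plain subtraction, 0.49 with spike control scaling, 0.92 in the authors' deposited table and 1.18 as the unscaled ratio of net signals on a log2 scale. Members at least 2-fold higher then numbered 12 by plain subtraction, 20 in the authors' deposited table and 26 by the unscaled ratio. The number was 0 on the reported scale, where member values lay too close together for a 2-fold difference. By plain subtraction 1 member was 2-fold lower. Of all miRNA probes detected on both arrays, 7.54% were 2-fold higher in the authors' deposited table and 13.4% by the unscaled ratio. No such share is given for plain subtraction, so its counts describe the family only. The cause of the shifts between settings was not tested. The miR-466 median was 0.17 by plain subtraction, 0.44 with spike controls and 0.55 in the authors' deposited table. The miR-467 median was 0.01 with the local background, 0.32 with offset 16, 1.15, 0.53 and 1.55 under the other 3 settings in the same order, and the miR-669 median 0.60, 0.49 and 0.94. The miR-297 median, over 2 probes, was 0.29 with offset 16, 1.1, 0.52 and 1.48, and turned to -0.01 with the local background. The 5p median was 0.22 with offset 16, then 0.63, 0.50 and 0.92, and the 3p median 0.30, 0.81, 0.50 and 1.05, or 0.02 with the local background; names with no arm had 0.37, 0.46 and 0.67. Inside Sfmbt2 the median was 0.24 with offset 16, then 0.77, 0.50 and 1.05, and outside it 0.33, 0.45 and 0.63. With a limit of 3 SD, 59 members were detected on the high-fat array and 39 on the normal-diet array. Among the 20 members named by the rule and detected on both arrays, the local background turned 7 from above to below 0. They were miR-467a-5p (-0.12), miR-467d-3p (-0.05), miR-466d-3p (-0.03), miR-669f-3p (-0.03), and miR-297a-5p and the shared miR-297 and miR-669a probes (-0.01 each). The same background turned miR-466f-3p (0.04), miR-466i-3p (0.12), miR-466i-5p (0.12), miR-669g (0.06) and miR-669k-5p (0.00471) from below 0 to above it. The cause was not tested. Values within a few units of the blanks limit all of these.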
